A study of Mus musculus with 10 samples.

Results

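The mitochondrially encoded genes are the genes of the circular DNA that mitochondria keep, and they were taken as every gene of the deposited count table whose symbol begins with "mt-". That rule gave 37 of 56748 genes, namely 13 protein genes, 2 ribosomal RNA genes and 22 transfer RNA genes. RNA-seq had been performed on primary adipocytes grown from the stromal vascular fraction of inguinal fat of male mice aged 6 to 8 weeks and differentiated for 6 to 8 days with IBMX, dexamethasone, insulin and rosiglitazone. The control group held 5 libraries of genotype Fam20c-flox, and the Ad-Fam20c–KO group (here KO) held 5 of genotype Fam20c-flox/Adipoq-Cre, so both groups carried the floxed allele and only the KO group carried Cre, which the adiponectin promoter drives in adipocytes and not in the other cells of such a culture. Fam20c encodes a secretory pathway kinase, and the comparison asks which transcripts depend on it in adipocytes. The labels do not say whether each library came from its own mouse or culture, so p-values measure only the spread between these libraries.

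Mitochondria transcribe their DNA from both strands into long precursor RNAs, which are cut at the transfer RNAs that lie between most of the other genes and are then mostly polyadenylated. The proteins made from these messengers are core subunits of the respiratory chain complexes I, III and IV and of the ATP synthase (complex V), where they work together with many nuclear encoded subunits. Fat cells rely on these complexes to oxidize fatty acids, and brown and beige fat cells use them to make heat.

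The first sequences show where counts of a mitochondrial gene can be shared with another gene. Sequences and positions are those of the GENCODE M21 transcripts on GRCm38, 5′ to 3′ on the strand of the gene. mt-Atp8 and mt-Atp6 lie on 1 messenger and overlap by 43 bases, in capitals here (chrM:7915-7981, + strand), and mt-Nd4l and mt-Nd4 share 7 bases of another messenger (chrM:10147-10193, + strand).
mt-Atp8/mt-Atp6: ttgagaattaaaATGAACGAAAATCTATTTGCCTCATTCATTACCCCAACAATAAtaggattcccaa
mt-Nd4l/mt-Nd4: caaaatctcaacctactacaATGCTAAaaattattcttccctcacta
mt-Nd3 (chrM:9459-9481, + strand) and its nuclear copy Gm28438 (chr1:24613097-24613119, - strand) differ in the aligned bases by a single substitution, T3C, counted from the first base of mt-Nd3 and in capitals here.
mt-Nd3: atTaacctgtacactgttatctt
Gm28438: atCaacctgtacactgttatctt
The nuclear copy Gm28439 holds the first 876 bases of mt-Nd4 without a mismatch and ends there, and the capitals mark the last bases that both have (chrM:11013-11072, + strand).
mt-Nd4: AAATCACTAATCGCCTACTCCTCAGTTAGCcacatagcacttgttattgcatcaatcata
The transfer RNAs for threonine and proline, mt-Tt (chrM:15289-15355, + strand) and mt-Tp (chrM:15356-15422, - strand), are shown because mt-Tt had the most counts of the transfer RNA genes and mt-Tp the smallest p of the mitochondrial genes in edgeR. The capitals mark the anticodon, found as the middle of the loop between the paired arms.
mt-Tt: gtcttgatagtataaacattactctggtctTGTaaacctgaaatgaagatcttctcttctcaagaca
mt-Tp: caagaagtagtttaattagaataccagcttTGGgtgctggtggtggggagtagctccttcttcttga

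Libraries held 18949106 to 26237825 counts, and between 415710 and 1097090 of these lay on mitochondrial genes. Fam20c itself was lower in KO, at 10.2 ± 1.29 CPM in control and 7.30 ± 0.449 CPM in KO (SD, n = 5 each, in CPM, which scale counts to one common library size after TMM normalization). Its log2 fold change was -0.49 (SE 0.09), with an adjusted p of 0.0137 in edgeR's quasi-likelihood test. The adipocyte markers were all detected, with a summed level of 32060 to 32961 CPM in control and 33786 to 35825 CPM in KO. Of these 12 markers 11 had a log2 fold change above 0, with a median of 0.083, and edgeR called 0 and had 5 at an unadjusted p under 0.05, against 11.9% of all genes tested. The 18 endothelial markers summed to 214 to 256 CPM in control and 101 to 141 CPM in KO, with 15 lower in KO, and 4 of 8 progenitor markers were lower in KO, against 1.86% of all genes tested. None of the 14 macrophage markers (median log2 fold change -0.024) and none of the 7 mural cell markers tested passed the limit of 0.05 in edgeR, but all 7 mural markers lay below 0, with a median of -0.35 and 4 at an unadjusted p under 0.05. Of the 7 brown and beige adipocyte markers tested, 6 had a log2 fold change above 0, with a median of 0.16 and 3 at an unadjusted p under 0.05 in edgeR. Only Ucp1, the uncoupling protein of brown fat, passed the limit, where 0.308% of all genes tested were called higher. Its level was 15.9 ± 5.62 CPM in control and 29.1 ± 3.96 CPM in KO (edgeR log2 fold change 0.87, adjusted p = 0.0284). The call of Ucp1 was lost on leaving out control 1, 2, 3 or 5 or KO 2, 4 or 5 (adjusted p up to 0.0856). The part of these other cells in the mitochondrial values and in the lower Fam20c level was not tested. In such bulk libraries fewer cells of a type and less RNA per cell cannot be told apart.

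Control 5 and KO 4 stood apart from the other libraries before any comparison. The share of the library on mitochondrial genes was 4.31%, 3.84%, 4.64%, 5.09% and 2.09% in control 1 to 5. In KO 1 to 5 it was 4.70%, 4.71%, 4.20%, 1.92% and 4.5%. Control 5 and KO 4 therefore lay near 2%, and the other 8 libraries lay between 3.84% and 5.09%. The 95% Wilson interval of a share, which covers counting error only, was at most 0.0187 percentage points wide. Total counts were 23174024 in control 5 and 21686258 in KO 4, both inside the range of the other libraries.

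Mitochondrial transcripts made up nearly the same mean share of control and KO libraries. The mean share was 4.00% ± 1.16 in control and 4.01% ± 1.19 in KO (SD, n = 5 each), a difference of 0.0123 percentage points with a standard error of 0.741. Without control 5 and KO 4 the means were 4.47% and 4.53%. The 13 protein genes took 3.78% ± 1.12 of control and 3.79% ± 1.14 of KO libraries, the 2 ribosomal RNA genes 0.215% ± 0.0402 and 0.215% ± 0.0474, and the 22 transfer RNA genes together 0.000715% and 0.000693%. No test was applied to these shares, which are sums over chosen genes.

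**Figure D1:**
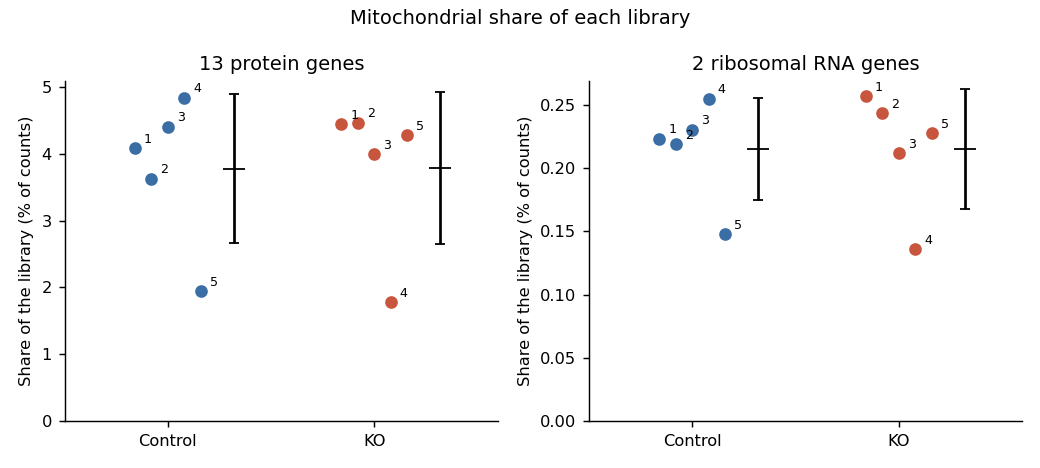
Share of each library's counts (%) on the 13 mitochondrial protein genes (left) and the 2 mitochondrial ribosomal RNA genes (right). Points are libraries, numbered by replicate, and bars give the mean and SD of 5 libraries. The group means are level at 3.78% and 3.79% for the protein genes, and control 5 and KO 4 are the lowest points of their groups in both panels.

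No mitochondrial gene passed the test between the genotypes. Of the 37 genes, 20 passed the filter on low counts (all 13 protein genes, both ribosomal RNA genes and 5 transfer RNA genes), and 0 of these 20 had an adjusted p under 0.05 in edgeR's quasi-likelihood test, against 2.17% of all 14270 genes tested (1.86% lower and 0.308% higher in KO). At an unadjusted p under 0.05 edgeR also had 0 of the 20, where 11.9% of all genes tested had one, and DESeq2 and limma voom each called 0 genes and had 1 at an unadjusted p under 0.05, mt-Tp in both. For 0 of the 20 genes did the 5 control libraries lie apart from the 5 KO libraries, against 3.97% of all genes tested. Estimates were above 0 for 9 genes and below 0 for 11, with a median log2 fold change of -0.0067 beside -0.00085 over all genes tested. Adjusted p-values ran from 0.441 to 0.999, and exact permutation tests over every assignment of the libraries to 2 groups of 5, 2-sided, gave unadjusted p-values from 0.111 to 1, where the smallest that this design allows is 0.00794. For the 8 genes with the most counts, 6 messengers and both ribosomal RNAs, the log2 fold changes lay between -0.022 and 0.063, and their 95% intervals reached down to -0.64 and up to 0.72. Without control 5 and KO 4 the same 8 genes had log2 fold changes of 0.0018 to 0.081, and again 0 of the 20 genes were called.

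**Figure D2:**
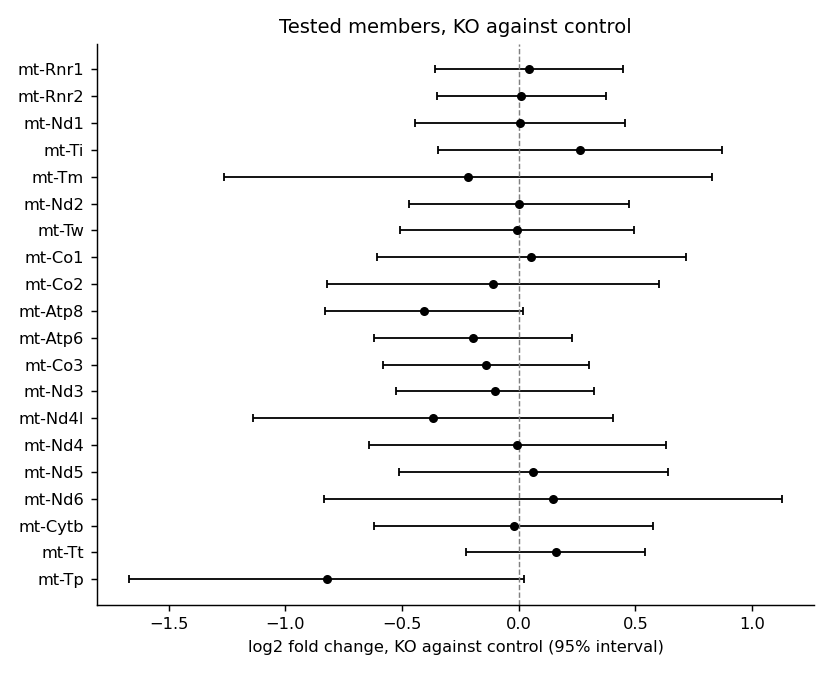
Log2 fold change of KO against control with its 95% interval (edgeR) for the 20 mitochondrial genes tested, in their order along the mitochondrial DNA. All intervals include 0, and those of mt-Atp8 (-0.83 to 0.02) and mt-Tp (-1.67 to 0.02) reach least far above it.

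Complex I, the NADH dehydrogenase that feeds electrons from NADH into the respiratory chain, has 7 of its core subunits from mitochondrial DNA. mt-Nd1 read 7322, 6557, 7778, 8424 and 4014 CPM in control 1 to 5, and 7743, 7844, 6868, 3891 and 7890 CPM in KO 1 to 5. mt-Nd2 stood at 5375, 4802, 5527, 5970 and 2714 CPM in control and 5482, 5602, 4878, 2749 and 5699 CPM in KO. For both, control 5 and KO 4 were the low libraries and the rest of the 2 groups overlapped. Means were 6819 ± 1709 and 6847 ± 1704 CPM for mt-Nd1 (log2 fold change 0.0059, SE 0.21, edgeR adjusted p = 0.998) and 4877 ± 1279 and 4882 ± 1234 CPM for mt-Nd2 (0.0013, SE 0.22, edgeR adjusted p = 0.999).

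mt-Nd4, which forms part of the proton pumping arm, measured 2749, 2452, 3062, 3134 and 1116 CPM in control and 2855, 2922, 2641, 1043 and 3002 CPM in KO. Its neighbour in that arm, mt-Nd5, measured 3788, 3314, 4018, 5120 and 1814 CPM in control and 4416, 4492, 3769, 1816 and 4369 CPM in KO. Both again had their low values in control 5 and KO 4, and outside those libraries the groups shared the same range. The log2 fold changes were -0.0056 (SE 0.29, edgeR adjusted p = 0.998) for mt-Nd4 and 0.063 (SE 0.27, edgeR adjusted p = 0.969) for mt-Nd5.

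The other complex I genes had far fewer counts. mt-Nd3 was at 2.05, 2.89, 2.92, 2.47 and 2.03 CPM in control and at 1.49, 3.34, 2.31, 2.15 and 2.19 CPM in KO. The low KO library was here KO 1 rather than KO 4. mt-Nd4l was at 1.89, 2.21, 1.88, 2.42 and 0.761 CPM in control and at 1.39, 1.89, 1.66, 0.366 and 1.78 CPM in KO, with control 5 and KO 4 lowest. Neither differed beyond the spread of the libraries, with log2 fold changes of -0.10 (SE 0.20, edgeR adjusted p = 0.918) and -0.37 (SE 0.36, edgeR adjusted p = 0.788).

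mt-Nd6 is the single protein gene on the minus strand, and it overlaps the end of mt-Nd5 by 14 bases on the other strand. It varied more between libraries than any other protein gene tested, at 28.0, 12.2, 23.8, 15.8 and 7.99 CPM in control and 42.5, 17.5, 18.2, 4.81 and 13.6 CPM in KO, with a within-group SD of 0.943 on the log2 scale. KO 1 was the highest library and KO 4 the lowest, and the log2 fold change was 0.15 (SE 0.45, edgeR adjusted p = 0.956). Whether the counting used strand is not stated in the sources used here, so counts in the overlap cannot be assigned to one of the strands. Counts on the rest of mt-Nd6 may likewise include RNA of the other strand.

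Complex III passes electrons to cytochrome c, and its one mitochondrial subunit is cytochrome b. mt-Cytb measured 5411, 4700, 6101, 6235 and 2476 CPM in control and 5690, 6040, 5252, 2130 and 5426 CPM in KO. Control 5 and KO 4 had less than the other libraries, which overlapped. The log2 fold change was -0.022 (SE 0.27, edgeR adjusted p = 0.990), from means of 4984 ± 1530 and 4908 ± 1581 CPM.

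Complex IV, the cytochrome c oxidase that reduces oxygen, takes its catalytic core from mt-Co1, mt-Co2 and mt-Co3. mt-Co1 was the most counted mitochondrial gene, at 15873, 13738, 16768, 20754 and 6866 CPM in control and 19236, 18686, 16056, 6024 and 16810 CPM in KO. Its log2 fold change was 0.054 (SE 0.31, edgeR adjusted p = 0.979). mt-Co2 reached 15.9, 20.1, 17.0, 20.7 and 7.36 CPM in control and 15.3, 21.4, 17.2, 4.72 and 16.3 CPM in KO. mt-Co3 reached 18.4, 28.8, 22.6, 25.0 and 13.7 CPM in control and 18.4, 24.7, 19.2, 12.3 and 24 CPM in KO. Control 5 and KO 4 were the lowest of their groups for all 3 genes, and the log2 fold changes of mt-Co2 and mt-Co3 were -0.11 (SE 0.33, edgeR adjusted p = 0.953) and -0.14 (SE 0.20, edgeR adjusted p = 0.883).

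The membrane part of the ATP synthase includes the products of mt-Atp6, which lines the proton channel, and mt-Atp8. mt-Atp6 read 11.9, 17.6, 13, 16.4 and 9.30 CPM in control and 10.6, 15.9, 12, 7.65 and 13.5 CPM in KO, a log2 fold change of -0.20 (SE 0.20, edgeR adjusted p = 0.798). mt-Atp8 read 2.99, 4.87, 3.01, 3.58 and 3.76 CPM in control and 2.08, 3.38, 2.49, 2.11 and 3.82 CPM in KO. Control 5 was not low for mt-Atp8, and 3 of the KO libraries lay below every control library. The means were 3.64 ± 0.769 and 2.78 ± 0.784 CPM, with a log2 fold change of -0.40 (SE 0.20, 95% interval -0.83 to 0.02, edgeR unadjusted p = 0.0601, adjusted p = 0.453) and an exact permutation p of 0.111. Counts for mt-Atp8 were 42 to 130 in a library, and its adjusted p under the alternatives ran from 0.303 to 0.771.

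The ribosomal RNAs form the small and large subunits of the mitochondrial ribosome. mt-Rnr1, the 12S RNA, measured 805, 765, 781, 989 and 512 CPM in control and 995, 887, 778, 476 and 833 CPM in KO. mt-Rnr2, the 16S RNA, measured 1415, 1391, 1486, 1631 and 934 CPM in control and 1637, 1606, 1323, 875 and 1470 CPM in KO. Both were low in control 5 and KO 4 and overlapped between the groups elsewhere, with log2 fold changes of 0.043 (SE 0.19, edgeR adjusted p = 0.971) and 0.011 (SE 0.17, edgeR adjusted p = 0.993).

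Transfer RNA genes, which are 59 to 75 bases long, were hardly counted in these libraries, which were primed on poly(A). No count fell on 12 of the 22 in any library, and with 0 counts a level of up to 0.114 to 0.158 CPM (3 counts of the library) cannot be told from absence. A further 5 had counts but did not pass the filter, mt-Tq at 0 to 16 counts, mt-Ts1 and mt-Te at 0 to 4, mt-Ty at 0 to 3 and mt-Ta at 0 to 2. The 5 that passed were those for threonine, tryptophan, methionine, isoleucine and proline.

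mt-Tt had 2.78, 2.81, 2.49, 3.53 and 2.11 CPM in control and 3.97, 2.33, 3.01, 2.47 and 3.56 CPM in KO. mt-Tw had 1.57, 1.27, 1.5, 1.98 and 1.10 CPM in control and 1.98, 1.49, 1.53, 0.779 and 1.58 CPM in KO. Their groups overlapped, with log2 fold changes of 0.16 (SE 0.18, edgeR adjusted p = 0.830) and -0.0079 (SE 0.23, edgeR adjusted p = 0.998). mt-Tm had 1.26, 1.24, 0.752, 1.06 and 0.127 CPM in control and 0.496, 1.01, 0.524, 0.321 and 1.48 CPM in KO, and mt-Ti had 0.629, 0.300, 0.705, 0.532 and 0.338 CPM in control and 0.694, 0.483, 0.655, 0.412 and 0.713 CPM in KO. Control 5 was the low library of mt-Tm, and for both genes the groups overlapped. Neither passed the limit, at log2 fold changes of -0.22 (SE 0.48, edgeR adjusted p = 0.933) and 0.26 (SE 0.28, edgeR adjusted p = 0.817).

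mt-Tp, the transfer RNA of proline on the minus strand, had the lowest p of the 20 genes in edgeR. As for mt-Nd6, its counts may include RNA of the other strand. It was counted at 1.99, 1.12, 1.36, 0.338 and 0.803 CPM in control and 0.843, 0.703, 0.349, 0.458 and 0.814 CPM in KO, which is 7 to 38 counts in a library. The libraries of control 1, 2 and 3 lay above all KO libraries, while control 4 was the lowest of the 10. The log2 fold change was -0.82 (SE 0.39, 95% interval -1.67 to 0.02, edgeR unadjusted p = 0.0559, adjusted p = 0.441), with an exact permutation p of 0.159. Without control 4 it was -1.04 and without control 1 it was -0.54, and over all alternatives the adjusted p stayed between 0.0880 and 0.720.

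Of the 5 transfer RNA genes tested, 4 lie at the border of a highly counted messenger, and mt-Tp is separated from mt-Cytb by mt-Tt. mt-Ti overlaps the end of mt-Nd1 by 2 bases, mt-Tm ends at base 3913 just before mt-Nd2, mt-Tw overlaps the end of mt-Nd2 by 2 bases, and mt-Tt begins at base 15289 just after mt-Cytb, with mt-Tp next to it on the other strand. The same place did not always bring counts, since mt-Tl1 (chrM:2676-2750) fills the stretch between mt-Rnr2 and mt-Nd1 and was at 0 in every library. Reads of a messenger's end and of the neighbouring transfer RNA were not separated here.

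Control 5 was the lowest control library for 17 of the 20 genes tested and KO 4 the lowest KO library for 16, with both true for 15. The exceptions were mt-Atp8, mt-Nd3, mt-Ti, mt-Tp and mt-Tt. The spread between libraries of a group was wide for these genes, with a median within-group SD of 0.441 on the log2 scale over the 20 genes against 0.135 over all 14270 genes tested. The genes did not fall evenly in the low libraries. mt-Co1 made up 33.5% of the mitochondrial counts in control 5 and 31.6% in KO 4, and 36.3% to 39.9% in the other 8 libraries. By contrast mt-Nd1 made up 19.6% and 20.4% there against 16.1% to 17.3% elsewhere, and the 2 ribosomal RNA genes together 7.05% and 7.09% against 4.97% to 5.70%.

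**Figure D3:**
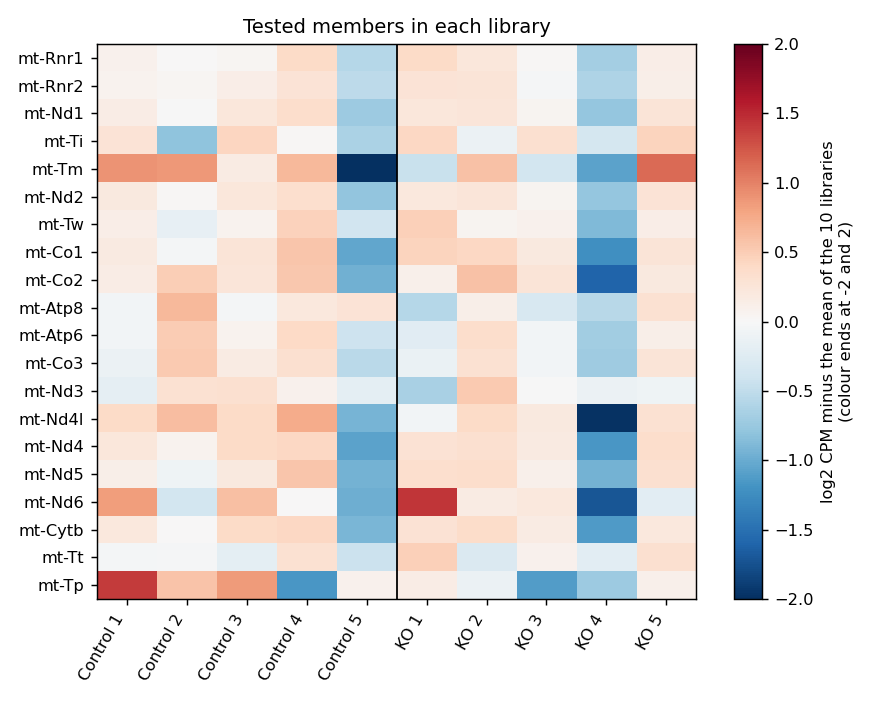
Level of the 20 mitochondrial genes tested in each library, as log2 CPM minus the mean of the 10 libraries, with genes in their order along the DNA. Blue is below and red above the mean, and the line divides control from KO. Control 5 and KO 4 are blue for most genes, and mt-Atp8 and mt-Tp are not below the mean in control 5.

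Nuclear encoded partners of the same complexes were not low in control 5 and KO 4. The 76 nuclear subunits of complexes I, III, IV and V that were tested summed to 26302 CPM in control 5 and 27597 CPM in KO 4, inside or above the range of 24692 to 27330 CPM in the other libraries. By group this sum was 24692 to 26302 CPM in control and 26328 to 27597 CPM in KO, so all KO libraries lay above all control libraries. No test was applied to the sum. The 13 mitochondrial messengers summed to 19045 and 17688 CPM in the same libraries and to 35651 to 49723 CPM in the others. Their ratio to the nuclear subunits was 1.48 ± 0.467 in control and 1.43 ± 0.452 in KO (SD, n = 5 each), with 0.724 in control 5 and 0.641 in KO 4.

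The 5 long RNAs listed as retained in the nucleus were low in the same libraries. Together they summed to 773, 547, 662, 762 and 170 CPM in control 1 to 5 and to 596, 628, 648, 177 and 427 CPM in KO 1 to 5. Neat1, the scaffold RNA of paraspeckles, was at 123 CPM in control 5 and 131 CPM in KO 4, against group means of 456 ± 196 and 388 ± 164 CPM, and Malat1, an abundant RNA of nuclear speckles, was at 39.4 and 39.2 CPM against 99.8 ± 43.2 and 88.8 ± 35.8 CPM. None of the 5 differed between the genotypes in edgeR. What the low values of mitochondrial and of nuclear retained RNA in these libraries have to do with each other was not tested.

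**Figure D4:**
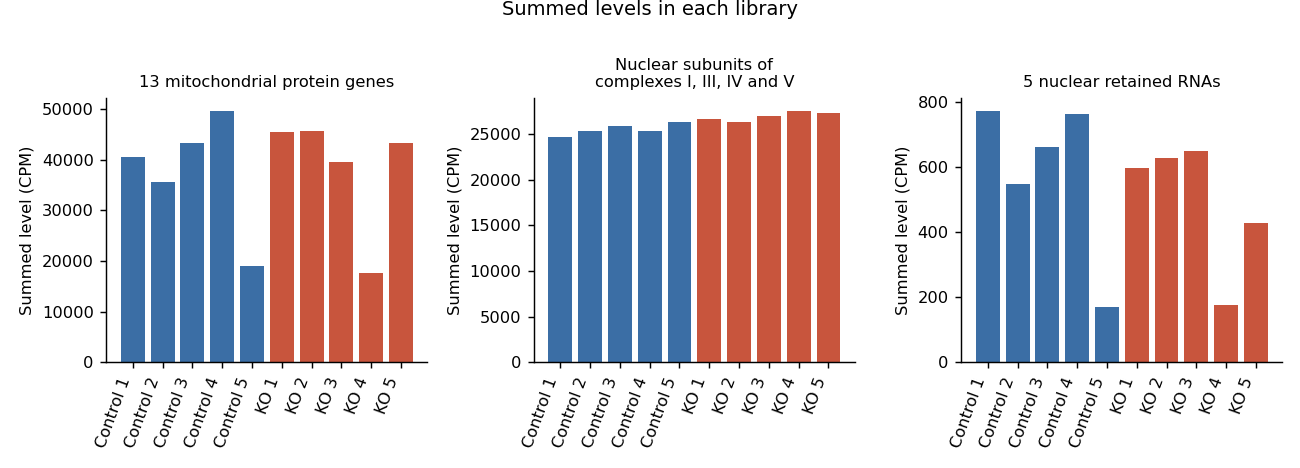
Summed level (CPM, axes from 0) in each library of the 13 mitochondrial protein genes, of the nuclear encoded subunits of complexes I, III, IV and V, and of 5 nuclear retained RNAs. Blue bars are control and red bars KO. Control 5 and KO 4 are the lowest bars in the left and right panels, at 19045 and 17688 CPM and at 170 and 177 CPM. The middle panel runs from 24692 to 26302 CPM in control and from 26328 to 27597 CPM in KO.

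Per base of gene, the counted levels of mitochondrial genes differed by orders of magnitude. The libraries were primed on poly(A), so these levels also depend on the poly(A) tail of each RNA, which was not measured. In control, mt-Co1 had 9603 ± 3186 CPM per kb (SD, n = 5), mt-Nd1 7154 ± 1718, mt-Nd2 4718 ± 1193 and mt-Cytb 4374 ± 1307 CPM per kb. The means of mt-Nd2 and mt-Cytb differed by less than the SD of either and those of mt-Co1 and mt-Nd1 by less than the SD of mt-Co1, whereas mt-Nd1 lay above mt-Nd2 by more than the SD of either. The genes were measured in the same libraries, and these SDs include the low control 5 that they share. They therefore do not tell whether genes differ within a library, which was not tested. mt-Nd5 and mt-Nd4 followed at 1984 ± 631 and 1823 ± 585 CPM per kb, and the ribosomal RNAs at 871 ± 156 for mt-Rnr2 and 810 ± 166 CPM per kb for mt-Rnr1. All other protein genes had less than 50 CPM per kb: mt-Nd6 34.0 ± 16, mt-Co3 27.8 ± 7.39, mt-Co2 23.8 ± 7.70, mt-Atp6 20.1 ± 4.85, mt-Atp8 18.0 ± 3.90, mt-Nd3 7.14 ± 1.28 and mt-Nd4l 6.19 ± 2.11 CPM per kb. mt-Nd4l and mt-Nd4 lie on 1 messenger, yet the level of mt-Nd4 was 295 times that of mt-Nd4l. The 6 most counted protein genes took 3.77% of control libraries and the other 7 took 0.00775%.

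Low protein genes other than mt-Nd6 lie in a stretch of the mitochondrial DNA that the nuclear genome also holds. BLAST of the mitochondrial genes against all annotated nuclear transcripts found 11 copies of 9 genes at 95% identity or more over at least 60 bases. Of these, 7 unprocessed pseudogenes lie next to each other on the minus strand of chromosome 1 (chr1:24611535-24616188) in the order of the mitochondrial genes, and their aligned ends span chrM:6390-11042, which is 4653 bases against 4654 on chromosome 1. Identity was 100% for Gm28661 with mt-Co2 (681 bases), Gm10925 with mt-Atp6 (678 bases), Gm28437 with mt-Co3 (783 bases), Gm10222 with mt-Nd4l (294 bases) and Gm28439 with the first 876 bases of mt-Nd4. It was 99.7% for Gm28438 with mt-Nd3 (345 bases) and 99.8% for Gm29216 with the last 483 bases of mt-Co1. The 6 protein genes wholly inside the span had 6.19 to 27.8 CPM per kb in control, mt-Co1 and mt-Nd4, which reach out of it, had 9603 and 1823, and the 5 protein genes outside it had 34.0 to 7154.

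For the 5 genes with a full-length or nearly full-length copy in the chromosome 1 span (mt-Co2, mt-Atp6, mt-Co3, mt-Nd3 and mt-Nd4l), gene and copy had levels of similar size. Over the 10 libraries mt-Co2 had 4.72 to 21.4 CPM and Gm28661 6.93 to 26.1 CPM, and mt-Nd3 had 1.49 to 3.34 CPM and Gm28438 1.45 to 3.07 CPM. The mean of the copy divided by the mean of the gene was 1.04 for mt-Co2, 0.986 for mt-Nd3, 0.848 for mt-Co3, 0.804 for mt-Nd4l and 1.54 for mt-Atp6. For the genes that reach beyond the span it was 0.0018 for mt-Co1 and 0.0039 for mt-Nd4. Another copy, Gm13340 on chromosome 2, matches all 1545 bases of mt-Co1 at 97.6% identity, and had 14.5 to 55.4 CPM against 6024 to 20754 CPM for mt-Co1. Every 50-base window of mt-Co2 occurs in a nuclear copy, as do 99.9% of those of mt-Co3, 99.5% for mt-Atp6, 98.8% for mt-Nd4l and 98.0% for mt-Nd3, against 62.2% for mt-Nd4, 51.1% for mt-Co1, 8.19% for mt-Nd2, 7.61% for mt-Nd5 and 0% for mt-Nd1, mt-Cytb and mt-Nd6. mt-Atp8 also had 0%, although it lies in the span. Its first part falls in a stretch of 233 bases between Gm28661 and Gm10925 that holds no annotated nuclear gene, and its last 43 bases, shared with mt-Atp6, fall in Gm10925. How reads with several positions were counted is not stated in the sources used here, so the levels of mt-Co2, mt-Co3, mt-Atp6, mt-Atp8, mt-Nd3 and mt-Nd4l, and in part those of mt-Nd4 and mt-Co1, are uncertain, and the part of the copies in the low values was not tested.

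**Figure D5:**
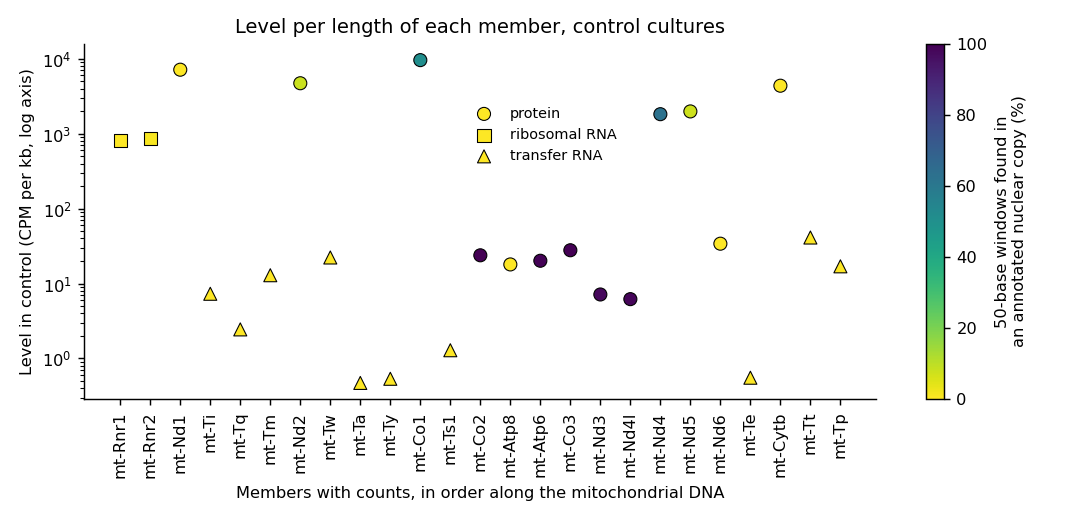
Mean level in the 5 control libraries (CPM per kb, log axis) of the 25 mitochondrial genes with counts, in their order along the DNA. Circles are protein, squares ribosomal RNA and triangles transfer RNA genes, and the colour gives the share of 50-base windows found in an annotated nuclear copy. The 5 dark circles, with 98.0% to 100% of their windows in a copy, lie between 6.19 and 27.8 CPM per kb.

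The nuclear copies did not pass the test between the genotypes either, with adjusted p-values of 0.771 to 0.988 for the 11 copies in edgeR. Adding their counts to the mitochondrial genes left 0 of 20 genes called, with log2 fold changes of -0.049 for mt-Atp6 in place of -0.20 and -0.39 for mt-Nd4l in place of -0.37.

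Nuclear genes that read, process and translate mitochondrial DNA were compared as lists. Of the mitochondrial transcription list 0 of 10 genes passed the limit, with Tfam, which packs mitochondrial DNA and starts its transcription, at a log2 fold change of 0.05 and Polrmt, the mitochondrial RNA polymerase, at -0.02 (edgeR adjusted p = 0.789 and 0.961). Those of smallest p there were Tfb2m, Tefm and Mterf3, at 0.10, 0.09 and 0.09. Of the 10 biogenesis regulators tested 0 passed, including Ppargc1a, the coactivator that drives mitochondrial biogenesis, at 36.7 ± 5.16 CPM in control and 41.8 ± 4.27 CPM in KO (log2 fold change 0.19, edgeR adjusted p = 0.484). Likewise 0 of 18 genes of mitochondrial DNA replication and maintenance, 0 of 36 of RNA processing and modification, 0 of 8 of RNA stability and decay, 0 of 23 aminoacyl-tRNA synthetases, 0 of 14 translation factors and 0 of 77 mitochondrial ribosomal proteins passed. Their unadjusted p-values under 0.05 in edgeR numbered 2, 5, 1, 1, 2 and 13 in that order, against 11.9% of all genes tested. At the limit edgeR called 2.17% of all genes tested, and at that share lists of these sizes would hold few or no calls. Genes of smallest p in these lists were Suclg2 (log2 fold change 0.11), Ptcd3 (0.13), Supv3l1 (0.13), Hars2 (0.16), Gfm2 (0.09) and Mrpl13 (0.19), with edgeR adjusted p-values of 0.0728 to 0.347.

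Among the nuclear subunits of the complexes, estimates leaned above 0, while those of the mitochondrial messengers lay on both sides of 0. In complex I, 36 of 36 nuclear subunits tested had a log2 fold change above 0, with a median of 0.083 beside -0.00085 over all genes tested. The subunits were measured in the same libraries, so their signs are not independent of each other. Of the 36, 1 passed the limit in edgeR, where 0.308% of all genes tested were higher. The mitochondrial ribosomal proteins (69 of 77 above 0) and the adipocyte markers (11 of 12) leaned the same way, while 15 of 18 endothelial and 4 of 8 progenitor markers were lower, and their part in this lean was not tested. The gene that passed was Ndufa6, an accessory subunit, at 151, 166, 164, 170 and 162 CPM in control and 187, 185, 185, 177 and 188 CPM in KO (log2 fold change 0.18, SE 0.04, edgeR adjusted p = 0.0293), with all KO libraries above all control libraries. That call held without control 4 and without KO 4 and was lost on leaving out any other single library, with adjusted p-values of 0.0536 to 0.0857. In edgeR no subunit passed of the 9 of complex III, the 12 of complex IV, the 19 of complex V or the 4 of complex II, which has no mitochondrially encoded part, and their medians were 0.087, 0.082, 0.057 and 0.079. At an unadjusted p under 0.05 edgeR had 13 genes of complex I, 2 of complex II, 3 of complex III, 5 of complex IV and 1 of complex V, against 11.9% of all genes tested. DESeq2 called 13 of the 276 genes in these lists higher, against 125 of all 14270 genes tested. Among the 13 were Ndufa6, Ndufa12, Ndufs1 and Ndufs4 of complex I and Sdha, Uqcrc2, Cox5a, Cox7a1 and Atp5pb of the other complexes. The rest were Hars2, Mrpl1, Mrpl13 and Ptcd3 of the other lists. In edgeR the lowest p belonged to Sdha in complex II, Uqcrc2 in complex III, Cox7a1 in complex IV and Atp5pb in complex V, at log2 fold changes of 0.12, 0.10, 0.16 and 0.11 and edgeR adjusted p-values of 0.0775 to 0.246. For the 13 mitochondrial messengers the log2 fold changes ran from -0.40 to 0.15, with SEs of 0.20 to 0.45. These SEs exceed the medians of the nuclear subunits, so a lean of that size could not be seen in the mitochondrial messengers.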

How the data were processed

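RNA-seq of 5 control and 5 KO libraries of primary differentiated adipocytes was analysed from the counts per gene that the authors deposited, without normalization, filtering or pooling. Per the study's methods, libraries were made with the SMARTer v4 Ultra Low Input kit, which primes on poly(A), and the Nextera XT kit, sequenced for 50 paired-end cycles, mapped with STAR to GRCm38.p6 and counted per fragment with featureCounts on an Ensembl annotation. All 37 "mt-" genes have a position in GENCODE M21.

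edgeR 4.0.16 in R 4.3.3 was fitted on all 14270 genes that passed filterByExpr (minimum count 10), with TMM scaling and its quasi-likelihood test, p-values were adjusted over all of them by Benjamini-Hochberg, and the limit was 0.05. Shares are percentages of the unscaled total. Levels per kb divide unscaled CPM by gene length. Exact permutation tests used every assignment, on CPM. Nuclear copies were searched with BLAST 2.17.0 among annotated transcripts only. Alternatives used DESeq2 1.42.0, limma 3.58.1 (voom), other scalings and filters, a replicate block and left-out libraries. The script was tested on simulated counts.

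The genes and lists were chosen with earlier results of these data known. Values in every library are given for the protein and ribosomal RNA genes and for transfer RNA genes that passed the filter. From each list the genes past the limit are named, and otherwise up to 3 of smallest p. Tfam, Polrmt, Ppargc1a and Fam20c are named whatever their values.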

Additional observations from a re-analysis of the deposited data

Results flagged for a closer look

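KO 4 lay far below the other 4 KO libraries, by Dixon's criterion for 5 samples, in 8 of the values reported, and control 5 did so in none. The KO 4 share of the library was 1.92% for all mitochondrial genes (the other KO libraries 4.20% to 4.71%) and 1.78% for the 13 protein genes (3.99% to 4.47%). The KO 4 level was 6024 CPM for mt-Co1 (16056 to 19236 in the other KO libraries), 2130 CPM for mt-Cytb (5252 to 6040), 3891 CPM for mt-Nd1 (6868 to 7890), 2749 CPM for mt-Nd2 (4878 to 5699), 1043 CPM for mt-Nd4 (2641 to 3002) and 1816 CPM for mt-Nd5 (3769 to 4492). These 8 values come from 1 library and are not independent of each other. In the summed level of the genes of mitochondrial RNA stability and decay, control 3 was low at 410.7 CPM (421.4 to 424.7 in the other control libraries). In that of the mural cell markers, KO 3 was low at 131.0 CPM (170.3 to 177.2 in the other KO libraries). In all 10 of 88 groups of 5 libraries were flagged, where chance flags about 1 in 20, or 4.4.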

How the results depend on the processing

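Under all 22 alternatives 0 of the mitochondrial genes were called in either direction, and the lowest adjusted p of any was 0.0880, for mt-Tp without control 4 and KO 1, at a log2 fold change of -1.16. The KO minus control difference in the mitochondrial share moved by less than 1 SD under every alternative, between -0.463 percentage points without control 5 and 0.535 without KO 4. Signs of estimates turned in 55 of 435 gene and setting pairs. Not all of these estimates were near 0, as mt-Nd6 was at 0.15 with edgeR on all libraries and at -0.36 without KO 1. The turned log2 fold changes were 0.00016 for mt-Nd4 with RLE size factors and 0.00013 with DESeq2, -0.0036 for mt-Nd2 with upper quartile factors, -0.0011 for mt-Nd2 at a minimum count of 50, and -0.015 for mt-Nd1, -0.020 for mt-Nd2 and -0.011 for mt-Rnr2 with total counts alone. With limma voom they were 0.022 for mt-Cytb, 0.053 for mt-Nd4, -0.12 for mt-Nd6, 0.046 for mt-Tm and 0.0030 for mt-Tw. Without control 5 and KO 4 they were 0.0018 for mt-Cytb, 0.0076 for mt-Nd4 and 0.065 for mt-Tw. Without control 4 and KO 1 they were 0.016 for mt-Cytb, 0.015 for mt-Nd3, 0.039 for mt-Nd4 and -0.38 for mt-Nd6. Leaving out each library in turn gave -0.13 to 0.26 for mt-Co1, -0.30 to 0.12 for mt-Co2, -0.19 to 0.17 for mt-Cytb, -0.13 to 0.15 for mt-Nd1, -0.15 to 0.15 for mt-Nd2, -0.27 to 0.018 for mt-Nd3, -0.19 to 0.19 for mt-Nd4, -0.11 to 0.24 for mt-Nd5, -0.36 to 0.40 for mt-Nd6, -0.073 to 0.18 for mt-Rnr1, -0.099 to 0.14 for mt-Rnr2 and -0.13 to 0.15 for mt-Tw. The cause was not tested.

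Of the 276 genes in the lists of nuclear partners, 1 was higher in KO with edgeR, against 13 with DESeq2, 5 with limma voom, 0 with total counts alone, 0 without the filter, 0 with the replicate block, 0 without control 5 and KO 4, and 0 to 4 with each library left out. 0 were lower under any alternative. Fam20c kept its call with each library left out (adjusted p 0.00778 to 0.0476) and lost it without both control 5 and KO 4 (0.0982). Over all 14270 genes tested, edgeR called 44 higher, DESeq2 125 and limma voom 111. Across all settings the calls over all genes tested ran from 127 to 359 lower and from 13 to 145 higher.

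The counts showed no pairing by replicate number: same-numbered libraries had correlations of their deviations of -0.173, 0.0892, 0.263, -0.251 and 0.0337, and only number 3 correlated best with its own. The labels do not say whether the numbers pair the samples, and these correlations cannot exclude it. With the replicate block 0 mitochondrial genes were called, and over all genes 193 lower and 21 higher calls were made, against 265 and 44 without it. Depth limits mt-Tp, mt-Ti, mt-Tm, mt-Tw and mt-Nd4l, with under 60 counts in each library.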
